A study of Saccharomyces cerevisiae with 6 samples.

Results

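Peroxisome assembly and fatty acid oxidation are described here for 42 of the 7125 genes in the count table, in Saccharomyces cerevisiae of the S288C background. The members were chosen by name alone: 27 genes called PEX followed by a number, whose products are the peroxins, and 15 genes for fatty acid oxidation, of which 10 encode enzymes, 3 carriers and 2 transcription factors. Poly(A)-selected RNA was sequenced from a Kap114 knockout strain (3 libraries) and a wild-type strain (3 libraries), each cultured in glucose-containing YPD to which 1.5 M NaCl had been added. Kap114 is an import receptor for nuclear cargo such as histones and the TATA-binding protein, and the comparison asks how its loss changes the transcriptome in high salt. The word TAF1 stands in all library names and is not explained in them. Every library came from high salt, so the values describe the genotypes under that condition alone. Whether the 3 libraries of a strain are separate cultures or clones is not stated, and p-values reflect their spread, which may be technical.

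Peroxisomes are small organelles bounded by a single membrane. In budding yeast they hold the whole of fatty acid beta-oxidation, which shortens acyl-CoA step by step and releases acetyl-CoA. Peroxins build the organelle: receptors bind matrix enzymes in the cytosol, a docking complex lets them in, and a ubiquitin-dependent machinery sends the receptors back. The oxidation genes are known to be repressed by glucose and induced by oleate, through the Oaf1-Pip2 factor pair and Adr1.

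The libraries held 34685666 to 38540115 counts in the knockout and 33638728 to 37893192 counts in the wild type. KAP114 itself had 0 counts in each knockout library, against 257, 336 and 312 counts in the wild-type libraries. The ribosomal RNA precursor locus RDN37 took 9.05% to 12.3% of counts in the knockout, against 3.69% to 4.54% in the wild type, and with RDN37 removed the numbers of member genes called, given below, were the same. Knockout library 1 lay nearer the wild type than the other knockout libraries did. On the first principal component, which held 88.0% of the variance, the knockout libraries stood at -12.0, -53.0 and -42.4 and the wild-type libraries at 43.0, 29.5 and 35.0.

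Most peroxins and most oxidation genes were lower in the knockout. Levels are given as CPM, counts scaled to library size with TMM factors, unless TPM, which also divides by gene length, is named. A gene was called when its edgeR adjusted p over all 6080 tested genes was under 0.05. All 42 members were tested, and 32 fell, 2 rose and 8 did not pass. Among all tested genes 64.3% were called, 30.0% lower and 34.3% higher. Of the 27 PEX genes 21 fell (77.8%), 1 rose and 5 did not pass. Of the 15 oxidation genes 11 fell (73.3%), 1 rose and 3 did not pass. The median log2 fold change was -0.69 for the PEX genes, with an interquartile range of -0.99 to -0.32. It was -0.78 for the 10 oxidation enzymes, with a range of -1.17 to -0.53, against 0.01 for all tested genes. Whether the PEX genes and the enzymes differ in their change was not tested. A decrease of at least 2-fold was called for 7 PEX genes and 5 oxidation genes, where 7.63% of all tested genes had one. The bulk RNA cannot tell fewer expressing cells from less RNA per cell.

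Summed over genes, the PEX genes had 1158 to 1744 TPM in the knockout and 2599.7 to 2696 TPM in the wild type. The 10 oxidation enzymes together had 704 to 1178 TPM in the knockout and 1823 to 2029 TPM in the wild type. Neither range overlapped between the genotypes. POT1 made up 35.7%, 18.7% and 22.9% of the enzyme sum in knockout libraries 1 to 3 and 41.2%, 37.8% and 39.4% in wild-type libraries 1 to 3. MDH3 had 322, 239 and 258 TPM in the knockout and 474, 455 and 462 TPM in the wild type, and in knockout libraries 2 and 3 it stood above POT1, which had 132 and 199 TPM there. The ratio of the PEX sum to the enzyme sum was 1.48, 1.64 and 1.52 in the knockout and 1.32, 1.43 and 1.39 in the wild type.

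**Figure D1:**
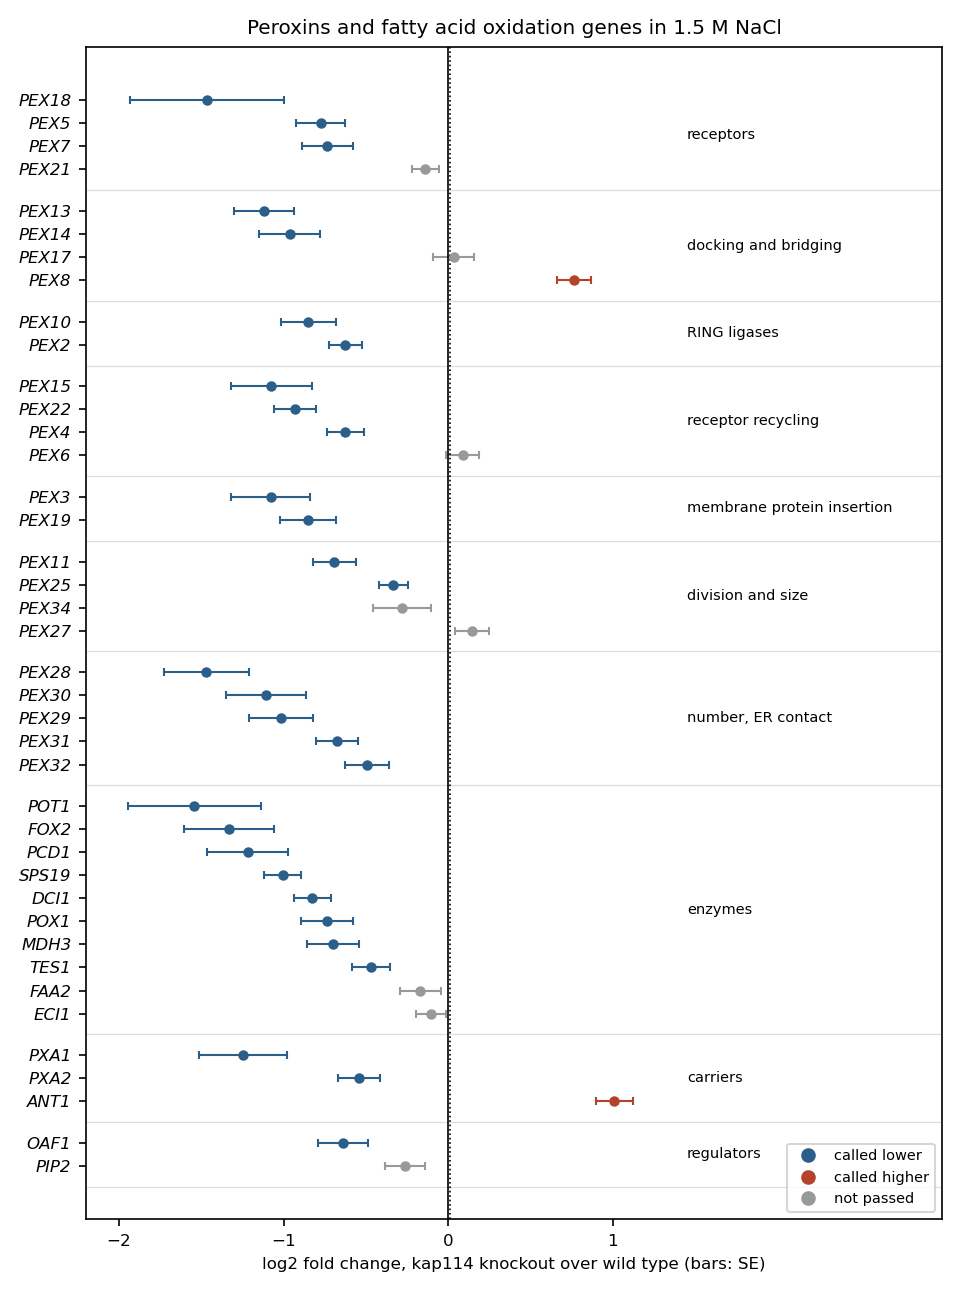
Log2 fold change of 40 member genes, knockout over wild type, by role, with bars for the SE. The dotted line is the median of all tested genes, 0.01, and 30 genes lie to its left and passed the test, while PEX8 and ANT1 lie to the right and passed.

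Of the 4 genes for receptors and co-receptors of matrix enzymes, 3 fell. PEX5 (chromosome IV, 950563 to 952401, plus strand, build R64) encodes the receptor for enzymes with a signal at the carboxyl end and had 198, 142 and 173 CPM over knockout libraries 1 to 3 and 306, 283 and 288 CPM over wild-type libraries 1 to 3. It fell 1.71-fold, with an edgeR adjusted p of 0.00406, and the groups did not overlap. PEX7, for the receptor of the amino-terminal signal that thiolase carries, fell 1.66-fold, to 40.1 ± 8.35 CPM in the knockout, against 66.6 ± 5.44 CPM in wild-type cells (SD, n = 3 each). Pex7 needs a co-receptor, either Pex18 or Pex21. PEX18 had 63.2, 14.2 and 27.3 CPM over knockout libraries 1 to 3 and 94.1, 99.3 and 95.7 CPM over wild-type libraries 1 to 3, a 2.76-fold decrease (log2 -1.47 ± 0.47, SE; edgeR adjusted p = 0.0272). Its knockout libraries ranged widely, with library 1 the highest, and the call ended without knockout library 3 or without any 1 wild-type library (edgeR adjusted p from 0.0655 to 0.0878). Without knockout library 1 its log2 fold change was -2.21. PEX21, the other co-receptor gene, had 39.2, 37.8 and 37.6 CPM in knockout cells and 41.5, 42.4 and 42.3 CPM in wild-type cells, and did not pass (log2 -0.14 ± 0.08, SE; edgeR adjusted p = 0.174), although with scaling by library totals only its adjusted p was 0.0206. The PEX18 to PEX21 ratio of TPM was 1.64, 0.382 and 0.739 in knockout libraries 1 to 3, against 2.30, 2.38 and 2.30 in the wild-type libraries. The wild type thus held more PEX18 than PEX21 RNA per length, as did knockout library 1, while knockout libraries 2 and 3 held less.

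Of the 4 docking and bridging genes 2 fell, 1 rose and 1 did not pass. PEX13 and PEX14, for the membrane proteins that receive the loaded receptors, fell 2.17-fold and 1.95-fold. PEX13 had 85.5, 53.3 and 60.9 CPM over knockout libraries 1 to 3 and 145, 134 and 154 CPM over wild-type libraries 1 to 3, and PEX14 had 145, 93.6 and 102 CPM in knockout cells and 245, 209.8 and 209 CPM in wild-type cells. No knockout library of either gene reached the lowest wild-type library. PEX17, for the remaining docking subunit, did not pass, with 12.4, 13.4 and 11.9 CPM in knockout cells and 13.3, 11.2 and 12.5 CPM in wild-type cells and a log2 fold change of 0.033 ± 0.12 (SE), whose sign changed with the scaling. PEX8 (chromosome VII, 637744 to 639513, minus strand), whose product lies on the inner face and links docking to the ubiquitin ligases, was the single PEX gene that rose. It had 26.5, 27.2 and 27.0 CPM over knockout libraries 1 to 3 and 16.5, 16.6 and 14.4 CPM over wild-type libraries 1 to 3. That is a 1.70-fold increase (edgeR adjusted p = 0.0012), with the knockout libraries close together and all above the wild type. Per length PEX8 averaged 14.3 ± 0.0978 TPM in the knockout, against 8.84 ± 0.643 TPM in wild-type cells (SD, n = 3 each), and none of the other members was lower in the wild type.

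PEX10 and PEX2, for RING-type ubiquitin ligases, fell 1.80-fold and 1.54-fold. PEX10 had 62.7, 40.5 and 48.5 CPM in knockout cells and 97.8, 83.8 and 91.7 CPM in wild-type cells. PEX2 had 51.7, 48.9 and 53.2 CPM in knockout cells and 87.9, 74.4 and 74.9 CPM in wild-type cells. No knockout library of either gene reached a wild-type library. PEX2 overlaps YJL211C on the other strand by 282 bases, and that row had 56, 23 and 31 counts in the knockout and 160, 109 and 89 counts in the wild type. Among genes that recycle the receptors, PEX4, for the ubiquitin-conjugating enzyme, and PEX22, for its membrane anchor, fell 1.54-fold and 1.91-fold. PEX4 stood at 21.0 ± 1.37 CPM in the knockout, against 32.3 ± 3.10 CPM in wild-type cells (SD, n = 3 each). PEX22 stood at 73.6 ± 10.4 CPM in the knockout, against 140.4 ± 8.78 CPM in wild-type cells (SD, n = 3 each). PEX15, for the membrane anchor of the AAA ATPase Pex6, fell 2.10-fold, with 44.4, 22.3 and 24.8 CPM over knockout libraries 1 to 3 and 63.3, 64.1 and 65.3 CPM over wild-type libraries 1 to 3. PEX6 had 53.0, 47.8 and 43.7 CPM in knockout cells and 45.7, 45.9 and 44.5 CPM in wild-type cells, which overlapped, and did not pass (log2 0.088 ± 0.10, SE).

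Both genes for insertion of peroxisomal membrane proteins fell, and they were among the most abundant members. PEX3 (chromosome IV, 1126270 to 1127595, minus strand) encodes the membrane receptor for Pex19 and had 267, 139 and 182 CPM over knockout libraries 1 to 3 and 436, 408 and 398 CPM over wild-type libraries 1 to 3, a 2.11-fold decrease (edgeR adjusted p = 0.00667). PEX19, for the soluble chaperone of membrane proteins, fell 1.80-fold, to 150.5 ± 31.4 CPM in the knockout, against 271 ± 18.2 CPM in wild-type cells (SD, n = 3 each). Per length only POT1 and MDH3 of the 42 genes stood above them in the wild type, where they had 308 and 261 TPM, and averaged 139 and 138 TPM in the knockout.

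Of the 4 genes for peroxisome division and size 2 fell and 2 did not pass. PEX11, for the main proliferation factor, fell 1.61-fold, with 60.0, 44.4 and 50.1 CPM in knockout cells and 90.0, 81.0 and 78.5 CPM in wild-type cells. PEX25, for a related membrane protein, fell 1.26-fold, at 42.4 ± 2.25 CPM in the knockout, against 53.4 ± 1.42 CPM in wild-type cells (SD, n = 3 each) (edgeR adjusted p = 0.0125, and 0.0563 with upper-quartile scaling). PEX27, its paralog, did not pass, although its groups stood apart at 17.1, 17.4 and 18.3 CPM in knockout cells and 16.2, 16.3 and 15.3 CPM in wild-type cells. PEX34 did not pass either (log2 -0.28 ± 0.18, SE), with 31.7, 21.3 and 22.9 CPM in knockout cells and 29.5, 35.2 and 27.5 CPM in wild-type cells. Without knockout library 1 it was called lower, at an edgeR adjusted p of 0.00672. All 5 genes of the PEX28 to PEX32 group, whose products set the number and size of peroxisomes and in part lie in the endoplasmic reticulum, fell. PEX28 (chromosome VIII, 397251 to 398990, plus strand) had 97.5, 46.1 and 58.4 CPM over knockout libraries 1 to 3 and 186, 185 and 187 CPM over wild-type libraries 1 to 3, a 2.77-fold decrease (log2 -1.47 ± 0.26, SE; edgeR adjusted p = 0.00293). The wild-type libraries of PEX28 agreed within a few CPM, while knockout library 1 was the highest of its group. PEX30 fell 2.15-fold, with 204, 106 and 124 CPM in knockout cells and 329, 305 and 299.9 CPM in wild-type cells. PEX29 fell 2.02-fold, to 87.6 ± 23.6 CPM in the knockout, against 177 ± 14.3 CPM in wild-type cells (SD, n = 3 each). In each of these genes all knockout libraries lay below all wild-type ones. PEX31 fell 1.6-fold, at 15.4 ± 1.69 CPM in the knockout, against 24.7 ± 2.17 CPM in wild-type cells (SD, n = 3 each). PEX32 fell 1.41-fold, at 15.4 ± 1.61 CPM in the knockout, against 21.7 ± 2.44 CPM in wild-type cells (SD, n = 3 each), and the call of PEX32 ended without knockout library 3 or wild-type library 3 (edgeR adjusted p of 0.0677 and 0.0559). A pair of further peroxin genes stands in the table under systematic names that RefSeq pairs with PEX9 and PEX35, so the rule did not take them, and they were looked up after the other values were seen. PEX9, for a second receptor of the carboxyl-terminal signal, fell 1.57-fold at a low level, 5.54, 5.15 and 6.01 CPM in knockout cells and 8.48, 7.91 and 9.80 CPM in wild-type cells (edgeR adjusted p = 0.00756). PEX35 did not pass, at 11.7 ± 0.630 CPM in the knockout, against 11.7 ± 0.445 CPM in wild-type cells (SD, n = 3 each).

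The core of beta-oxidation was lower at each step. POX1 (chromosome VII, 108158 to 110404, plus strand), for the acyl-CoA oxidase of the first step, had 115, 110.0 and 151 CPM over knockout libraries 1 to 3 and 226, 186 and 215 CPM over wild-type libraries 1 to 3. It fell 1.67-fold (edgeR adjusted p = 0.00606), and here knockout library 3, not library 1, was the highest. FOX2 (chromosome XI, 454352 to 457054, minus strand), for the multifunctional enzyme of the middle steps, fell 2.52-fold, with 300.2, 139.7 and 196 CPM in knockout cells and 567, 501 and 534 CPM in wild-type cells. POT1 (chromosome IX, 40191 to 41444, minus strand), for the thiolase that releases acetyl-CoA, had 556, 176 and 266 CPM over knockout libraries 1 to 3 and 1089, 863 and 955 CPM over wild-type libraries 1 to 3. This 2.91-fold decrease was the largest among the 42 genes (log2 -1.54 ± 0.40, SE; edgeR adjusted p = 0.0129), and the call ended without knockout library 3, where the adjusted p was 0.0524. Leaving out knockout library 1 gave a log2 fold change of -2.13. POT1 was the most abundant member per length in the wild type, at 763 TPM. In the knockout it averaged 250.3 TPM, with an SD of 151 TPM, and MDH3 273 TPM, with an SD of 43.5 TPM, so those levels do not differ beyond their spread.

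Of the other 7 enzyme genes 5 fell and 2 did not pass. SPS19 (chromosome XIV, 259578 to 260456, plus strand), for a dienoyl-CoA reductase used on unsaturated fatty acids, fell 2.01-fold, with 32.5, 30.0 and 37.4 CPM over knockout libraries 1 to 3 and 65.3, 71.4 and 64 CPM over wild-type libraries 1 to 3 and an edgeR adjusted p of 0.00113. DCI1, for a dienoyl-CoA isomerase, fell 1.77-fold, with 14.7, 12.6 and 14.1 CPM in knockout cells and 24.1, 23.2 and 26.1 CPM in wild-type cells. ECI1, its paralog and the enoyl-CoA isomerase gene, had 58.4, 56.1 and 59.9 CPM in knockout cells and 67.2, 59.9 and 60.3 CPM in wild-type cells. ECI1 did not pass (log2 -0.10 ± 0.09, SE; edgeR adjusted p = 0.339), although it was called lower with library totals only (adjusted p = 0.0333). PCD1, for a hydrolase of coenzyme A, fell 2.33-fold, with 47.0, 22.9 and 28.6 CPM in knockout cells and 75.3, 74.8 and 79.2 CPM in wild-type cells. MDH3, for the peroxisomal malate dehydrogenase, fell 1.62-fold, to 299 ± 45.3 CPM in the knockout, against 485 ± 21.4 CPM in wild-type cells (SD, n = 3 each). TES1, for an acyl-CoA thioesterase, fell 1.38-fold, with 91.6, 86.4 and 98.4 CPM in knockout cells and 142, 115 and 126 CPM in wild-type cells, the smallest decrease among the enzymes called. FAA2, for the peroxisomal acyl-CoA synthetase, had 88.9, 77.5 and 104 CPM in knockout cells and 102, 102 and 100.1 CPM in wild-type cells, which overlapped, and did not pass (log2 -0.17 ± 0.12, SE). SPS19 overlaps YNL203C on the other strand by 473 bases, and that row had 159, 158 and 207 counts in the knockout and 289, 348 and 316 counts in the wild type. SPS19 itself had 1101, 998 and 1369 counts in the knockout and 2327, 2869 and 2304 counts in the wild type. Over the whole count table strands were mostly well separated: 46 rows lie wholly inside an opposite-strand gene above 50 RPKM, and their RPKM was a median 0.000679 of that gene's. Relative to SPS19, the counts of YNL203C were far above that median, and whether they are reads of SPS19 was not tested. FAA2, PEX14 and TES1 also overlap a row on the other strand, with at most 40 counts in any library.

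**Figure D2:**
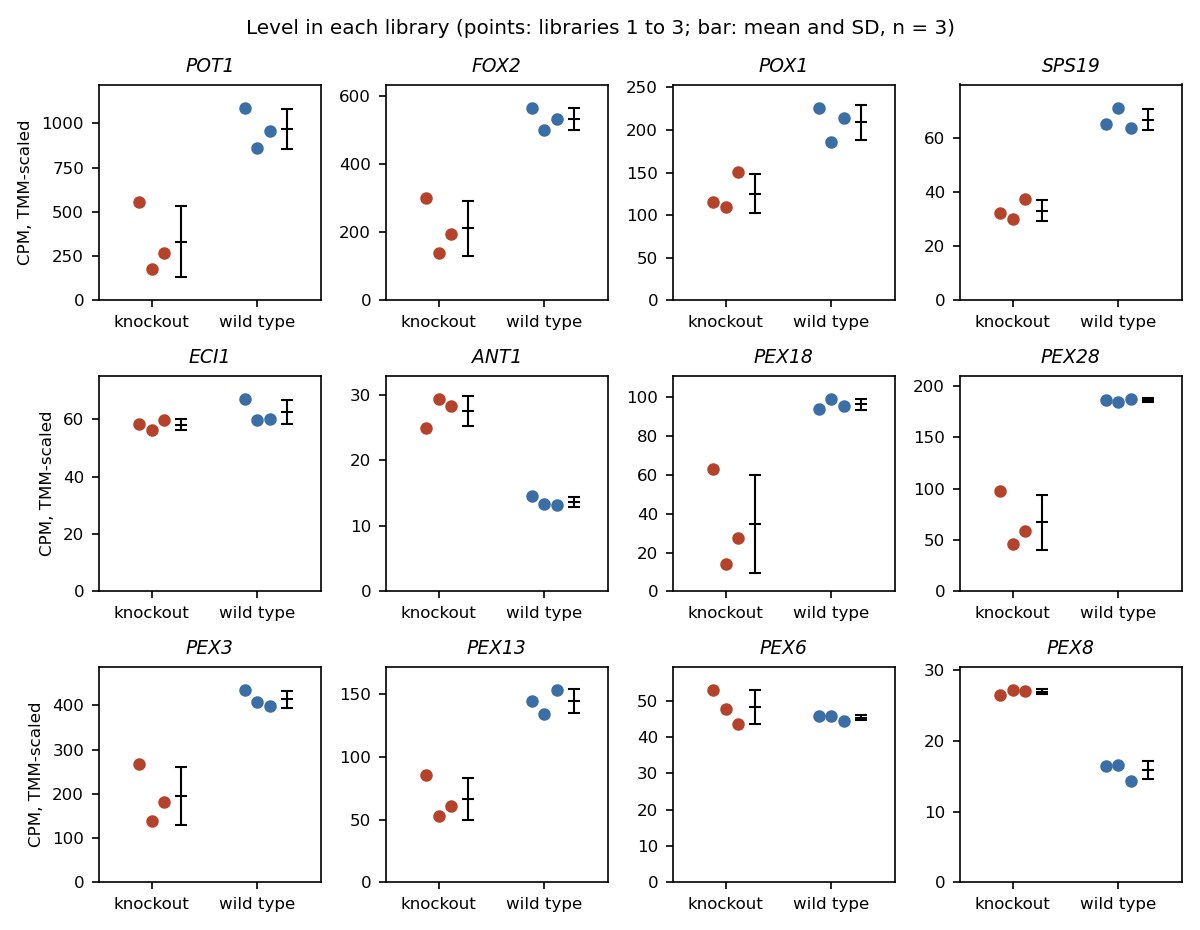
CPM of 12 members in each library, knockout left of wild type, with the mean and SD (n = 3) beside the points. POT1, FOX2, PEX18 and PEX28 show knockout library 1 above libraries 2 and 3 and below the wild type, whereas PEX8 and ANT1 stand above the wild type in each knockout library.

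Of the 3 carrier genes 2 fell and 1 rose. PXA1 and PXA2 encode the partner subunits of the transporter that brings long-chain acyl groups into the peroxisome. PXA1 fell 2.37-fold, with 90.2, 40.1 and 61.7 CPM over knockout libraries 1 to 3 and 163, 149 and 143 CPM over wild-type libraries 1 to 3. PXA2 fell 1.46-fold, with 78.4, 58.8 and 65.9 CPM in knockout cells and 99.3, 93.2 and 103 CPM in wild-type cells. ANT1 (chromosome XVI, 791218 to 792204, minus strand), for the carrier that brings ATP into the peroxisome, was the single oxidation gene that rose. It had 25, 29.4 and 28.3 CPM over knockout libraries 1 to 3 and 14.6, 13.3 and 13.2 CPM over wild-type libraries 1 to 3, a 2.01-fold increase (log2 1.01 ± 0.11, SE; edgeR adjusted p = 0.00114), and the groups did not overlap. Of the regulators, OAF1 fell 1.56-fold (edgeR adjusted p = 0.0089), with 102, 69.3 and 78.2 CPM in knockout cells and 135, 124 and 129 CPM in wild-type cells. PIP2, for its partner, did not pass (log2 -0.26 ± 0.12, SE; edgeR adjusted p = 0.0906), at 83.1 ± 10.7 CPM in the knockout, against 99.6 ± 5.94 CPM in wild-type cells (SD, n = 3 each). PIP2 was called lower without knockout library 1, at an edgeR adjusted p of 0.00394, with library totals only, at 0.0167, and with limma on log2(TPM + 1) and log2(TPM + 0.1), at 0.0400 and 0.0402.

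The Oaf1-Pip2 pair is known to bind the oleate response element, so the 500 bases before each start codon were searched for it in the RefSeq genome of build R64, which gave all 42 members the same start and end as the count table. The element was written as CGGNNNTNA, then 9 to 12 further bases, then CCG, on either strand. It was found before 11 of 15 oxidation genes (73.3%), including 9 of 10 enzymes, and before 4 of 27 PEX genes (14.8%), against 1.87% of 5978 protein-coding genes. The matched stretches below are shown to set oxidation genes that fell beside ones that did not pass, and peroxins beside them. Each is read in the direction of its gene, with 10 bases on either side, and capitals mark the fixed bases of the element on whichever strand, or both, it was read. SPS19, FAA2 and PEX13 lie on the plus strand and the others on the minus strand. FOX2 had a second match 283 bases before its start codon, not shown.
POT1 chrIX:41600-41642: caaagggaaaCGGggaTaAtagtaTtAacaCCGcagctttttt
FOX2 chrXI:457295-457335: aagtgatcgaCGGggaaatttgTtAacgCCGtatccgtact
SPS19 chrXIV:259402-259445: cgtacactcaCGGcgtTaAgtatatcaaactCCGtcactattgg
DCI1 chrXV:675276-675319: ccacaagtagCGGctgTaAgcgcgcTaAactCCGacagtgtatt
ECI1 chrXII:707181-707223: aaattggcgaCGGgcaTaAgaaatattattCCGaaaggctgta
FAA2 chrV:184345-184387: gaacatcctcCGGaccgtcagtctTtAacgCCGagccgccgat
PEX13 chrXII:537106-537149: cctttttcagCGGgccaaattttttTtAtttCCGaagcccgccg
PEX11 chrXV:48746-48788: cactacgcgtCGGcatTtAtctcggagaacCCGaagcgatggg
PEX6 chrXIV:22744-22787: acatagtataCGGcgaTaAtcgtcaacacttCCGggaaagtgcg

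POT1, DCI1 and POX1 matched on both strands at the same place, and these genes fell, whereas PIP2, which also matched on both, did not pass. ECI1, FAA2 and PEX6 carried a match and did not pass. The matches of the 15 members lay between 108 and 342 bases before the start codon. The 15 members with a match had a median log2 fold change of -0.70, with 11 lower and 0 higher, and the 27 without one had a median of -0.69, with 21 lower and 2 higher. Among all tested genes the median was -0.12 for 109 genes with a match and 0.03 for 5649 without. Adr1 is known to bind a short element, searched as TTGGAG or TTGGGG on either strand. It lay before 12 of 15 oxidation genes (80.0%), including each of the 10 enzymes, and before 8 of 27 PEX genes (29.6%), against 26.2% of all protein-coding genes. Members with and without it had median log2 fold changes of -0.70 and -0.71. A match describes letters and not binding, and windows can reach into a neighbouring gene.

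Partner genes were set against each other within each library, since a ratio of their TPM does not depend on how libraries are scaled. Of 7 pairs of paralogs or complex partners, 6 had ratios that did not overlap between genotypes. Each of these had an exact two-sided permutation p of 0.1, the smallest that 3 against 3 libraries allow, and a Benjamini-Hochberg adjusted p of 0.117 over the 7 pairs, so none could reach 0.05. How often the ratios of other gene pairs stand apart was not computed, and 73.8% of single tested genes did not overlap between genotypes. PEX18, PEX25, DCI1 and OAF1 were called lower and their partners did not pass, so the ratios of these pairs largely restate those results. The PXA1 to PXA2 ratio was 1.13, 0.669 and 0.917 in knockout libraries 1 to 3, against 1.61, 1.57 and 1.36 in the wild-type libraries. The DCI1 to ECI1 ratio was 0.261, 0.231 and 0.243 in knockout libraries 1 to 3, against 0.370, 0.401 and 0.447 in the wild-type libraries. The OAF1 to PIP2 ratio was 1.02, 0.881 and 0.940 in knockout libraries 1 to 3, against 1.22, 1.26 and 1.23 in the wild-type libraries, so OAF1 was the higher of the partners in each wild-type library. The PEX25 to PEX27 ratio averaged 2.30 ± 0.0792 in the knockout and 3.20 ± 0.191 in the wild type (SD, n = 3 each). The PEX4 to PEX22 ratio overlapped, at 0.248, 0.297 and 0.303 in knockout libraries 1 to 3, against 0.211, 0.221 and 0.249 in the wild-type libraries, with an exact permutation p of 0.2.

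**Figure D3:**
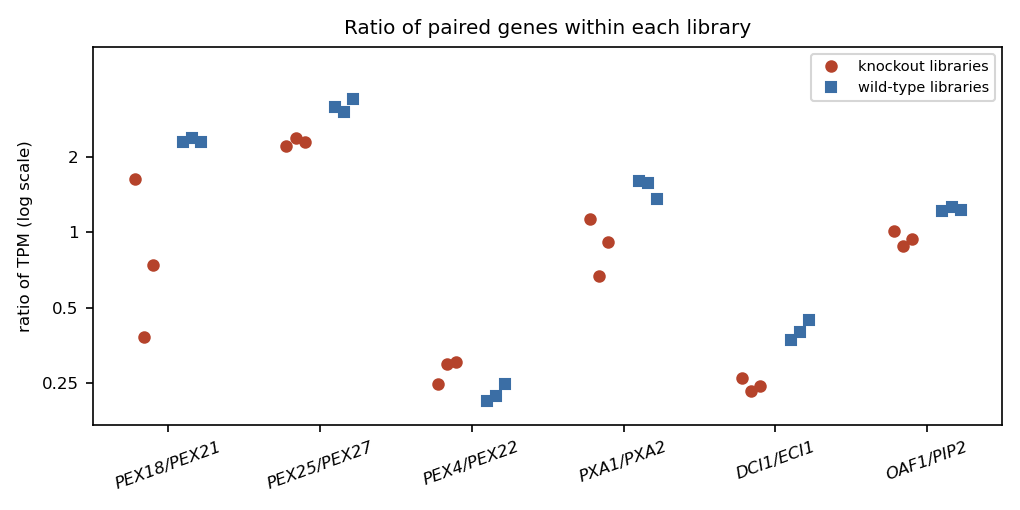
Ratio of TPM of the first gene to the second within each library, on a log axis, with knockout libraries left of wild-type libraries. For 5 of the 6 pairs drawn the genotypes do not overlap, while for PEX4 and PEX22 they do.

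The decrease differed between the knockout libraries. Set against the wild-type mean, the median log2 difference of the PEX genes was -0.53, -0.90 and -0.77 in knockout libraries 1 to 3, and that of the 10 enzymes was -0.71, -0.94 and -0.78. Of the 32 members that fell, 26 (81.3%) had their highest knockout value in library 1 and 28 (87.5%) their lowest in library 2. Among all 1826 genes that fell, 87.6% and 77.1% did so. Without knockout library 1, 22 PEX genes and 12 oxidation genes were called lower and PEX8 and ANT1 higher. Their medians were then -0.82 for the PEX genes and -0.85 for the enzymes, and 2260 genes were called lower overall. Without knockout library 3, 18 PEX genes, 10 oxidation genes and 1096 genes overall were called lower. The median coefficient of variation over the 42 members was 15.2% among knockout libraries and 6.18% among wild-type libraries, against 15.3% and 7.57% over all tested genes. Groups did not overlap for 34 members that were lower and 3 that were higher in the knockout, where 73.8% of all tested genes had no overlap, 35.9% lower and 37.9% higher.

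**Figure D4:**
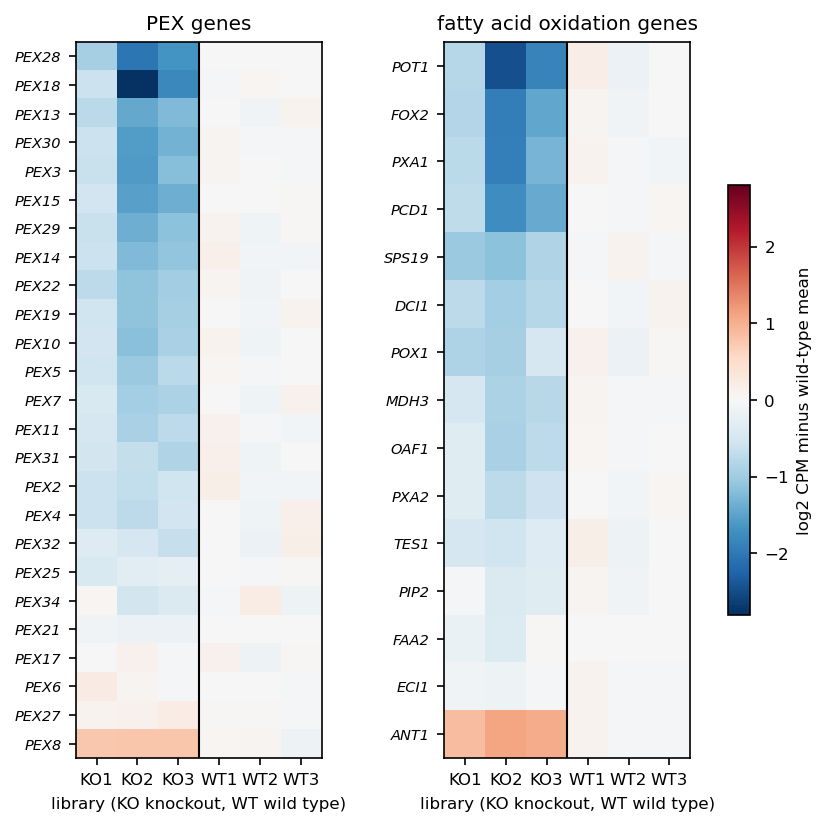
Log2 CPM of 40 members minus the wild-type mean of each, in knockout libraries (KO1 to KO3) and wild-type libraries (WT1 to WT3). Blue is lower and red is higher. For PEX18 and POT1 library KO1 is paler than KO2 and KO3, and the rows of PEX8 and ANT1 are red in each knockout library.

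Of the 42 members, 30 had a false discovery rate under 0.05 and a negative fold change in the authors' deposited table, and 2 a positive fold change. The share of all genes that passed there was not computed. In the fit made here 30.0% of all tested genes were called lower and 34.3% higher. Those shares rest on edgeR p-values, which differ from the deposited ones, so they are not the background of the 30 and 2 members. PEX25 was called here but had a false discovery rate of 0.111 in the authors' deposited table. OAF3, which is not a member and is described below, was also called here and had 0.191 there. The authors' deposited table gave POT1 a log2 fold change of -1.54 and ANT1 one of 1.01.

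Other genes of peroxisomes and fatty acid use, a list of 30 by role, moved in both directions. Of 29 tested, 16 fell (55.2%), 7 rose and 6 did not pass, where 30.0% of all tested genes fell and 34.3% rose. The median log2 fold change of the list was -0.61, and without knockout library 3 the number that fell was 10. PXP3 had 2, 4 and 4 counts in the knockout and 0, 5 and 0 counts in the wild type and was not tested. CTA1, for the peroxisomal catalase that removes the hydrogen peroxide made by Pox1, fell 2.88-fold, with 651, 236 and 359 CPM in knockout cells and 1244, 1134 and 1203 CPM in wild-type cells. MLS1 and CIT2, for a malate synthase and the peroxisomal citrate synthase, fell 2.31-fold and 2.42-fold, and LPX1, for a peroxisomal lipase, 2.24-fold. The call of CIT2 ended without knockout library 3 (edgeR adjusted p = 0.0579). DNM1 and FIS1, which act in fission of peroxisomes and mitochondria, fell 1.77-fold and 1.54-fold.

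All 4 genes of the carnitine shuttle, which moves acetyl groups out of the peroxisome and into mitochondria, fell; they were named after their values were seen. YAT1 had 109.6, 27.8 and 61.9 CPM over knockout libraries 1 to 3 and 503, 221 and 260.2 CPM over wild-type libraries 1 to 3, a 4.94-fold decrease (log2 -2.30 ± 0.53, SE). CRC1, for the mitochondrial carnitine carrier, fell 3.33-fold, YAT2 3.64-fold and CAT2 2.39-fold. The call of YAT2 ended without knockout library 3 or wild-type library 1 (edgeR adjusted p of 0.0725 and 0.0604). Without knockout library 1 the log2 fold changes of CRC1 and YAT2 were -2.35 and -2.67, against -1.74 and -1.86 with all libraries. Genes that rose included FAA4, for a cytosolic acyl-CoA synthetase (2.57-fold), NPY1, for a peroxisomal NADH diphosphatase (2.58-fold), GPD1, for glycerol-phosphate dehydrogenase (2.33-fold), and LYS1, for the last enzyme of lysine synthesis (1.81-fold). FAA4 had 391, 649 and 539 CPM in knockout cells and 199, 219 and 196 CPM in wild-type cells. Of the 4 genes for fatty acid activation in this list, 2 rose, 1 fell and 1 did not pass. FAA1, chosen once its values were known and also for an acyl-CoA synthetase, fell 2.53-fold, with 3119, 1092 and 1557 CPM in knockout cells and 5077, 4553 and 4962 CPM in wild-type cells (edgeR adjusted p = 0.0204). The call of FAA1 ended without knockout library 3, wild-type library 1 or wild-type library 3 (edgeR adjusted p from 0.0595 to 0.0818).

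Among the other regulators, ADR1, for a glucose-repressed activator of the oxidation genes, fell 2.14-fold, with 484, 192 and 287 CPM over knockout libraries 1 to 3 and 716, 646 and 699.6 CPM over wild-type libraries 1 to 3 (edgeR adjusted p = 0.0194). The call of ADR1 ended without knockout library 3 and without wild-type library 1 or 3 (edgeR adjusted p from 0.057 to 0.0701). OAF3, for a repressor of oleate-responsive genes, rose 1.22-fold, with 36.8, 41.7 and 41.0 CPM in knockout cells and 33.8, 33.3 and 31.0 CPM in wild-type cells. Its edgeR adjusted p was 0.034, and the call ended under 10 of the 17 alternatives, with adjusted p from 0.0523 to 0.229.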

How the data were processed

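RNA of 3 knockout and 3 wild-type libraries was measured by stranded poly(A) sequencing, per the labels' protocols. Genotype and replicate number come from each sample's title. The deposited counts are whole numbers of reads per gene, without normalization, and the authors also gave RPKM and TPM, per the file headers. The deposited comparison lists, per the file headers, a score (signed fold change, below 0 for a decrease), its log2 fold change, a p-value and an adjusted one. The submitters' processing notes name the build R64. How reads were aligned, counted and tested by the authors is not stated here. Of 6143 rows matched to the RefSeq annotation of R64, 99.8% had the same start and end. The printed coordinates are the count table's own.

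The 6080 genes that passed filterByExpr, with minimum count 10 and minimum total 15, were tested. Counts were scaled with TMM (factors 0.947 to 0.958 in the knockout and 1.02 to 1.07 in the wild type) and fitted with edgeR 4.0.16 in R 4.3.3, by a robust quasi-likelihood fit of all 6 libraries with genotype as the single term. P-values were adjusted by Benjamini-Hochberg over all tested genes, with a threshold of 0.05. The SE of a log2 fold change comes from the F statistic. Without adjustment 4166 genes had a p under 0.05. What share of the true differences between these libraries the fit recovers, and how many of its calls are false, is not known.

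The alternatives were RLE, upper-quartile and library-total scaling, removal of RDN37, DESeq2 1.42.0, limma 3.58.1 with voom, limma on TPM on a log2 scale with a pseudocount of 1 or 0.1, no filter, at least 10 CPM in 3 libraries, a block for the replicate number, and each library left out in turn. The members, the lists, the motifs and the pairs were chosen with earlier results of these data known. All 42 members enter the counts and medians, and 2 of them are not reported here by name. Of the list of other genes the rule named CTA1, CIT2, ADR1, OAF3 and the 8 with the smallest p past the threshold (MLS1, LPX1, FAA4, GPD1, NPY1, DNM1, LYS1 and FIS1). YAT1, YAT2, CRC1, CAT2, FAA1, PXP3, IDP3 and FAT1 fall outside it and were named after their values were seen, as were PEX9 and PEX35.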

Additional observations from a re-analysis of the deposited data

How the results depend on the processing

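Under the 17 alternatives 18 to 22 PEX genes and 10 to 13 oxidation genes were called lower, and 1 of each, PEX8 and ANT1, higher. The median log2 fold change lay between -0.84 and -0.63 for the PEX genes and between -0.93 and -0.71 for the 10 enzymes. With library totals only, the median of all genes shifted to -0.13 and that of the enzymes to -0.93. Leaving out 1 library at a time gave 1096 to 2260 genes called lower among all tested, and 10 to 16 lower genes of the list of other peroxisomal genes, where without knockout library 3 the counts were 1096 and 10, and without wild-type library 1 the count over all genes was 1210. The cause was not tested.

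Changes of sign occurred among genes that did not pass. PEX17 was at -0.11 with library totals only and at -0.035 and -0.036 with limma on log2(TPM + 1) and log2(TPM + 0.1). With library totals only PEX6 was at -0.056 and PEX27 at -0.00019. Leaving out 1 library at a time, the log2 fold change ranged between -0.033 and 0.091 for PEX17, between -0.089 and 0.028 for IDP3 and between -0.042 and 0.041 for FAT1. IDP3, of the list of other genes, was at 0.040 with upper-quartile scaling. FAT1, of the list of other genes, was at 0.069 with upper-quartile scaling and 0.0049 with at least 10 CPM in 3 libraries.

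With the replicate number as a block, 21 PEX genes and 11 oxidation genes were called lower, 1 of each higher, 6 of the other list higher and 16 lower, and 2059 genes higher and 1857 lower over all. The same-numbered libraries correlated at 0.32, 0.18 and -0.07 in their deviations from the group means. Knockout libraries 1 and 2 correlated best with the wild-type library of their own number, and knockout library 3 did not. The number is that of the sample titles, and the library names number the knockouts otherwise. Whether libraries were prepared in pairs is not stated in the labels. Only 3 libraries per genotype limit the precision of every value.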
